A study of Mus musculus with 2 samples.

Results

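The genes described here are the mouse oligoadenylate synthetase (Oas) family and the sensors of RNA in the cytosol: Oas1a, Oas1g, Oas2, Oas3, Oasl1, Oasl2, Ifih1, Dhx58, Eif2ak2 and the RIG-I gene, which the table lists as Ddx58. They were taken by symbol, 10 genes of 40017 symbols in the deposited table. All 10 have 1 row each, and all 10 have a mean of at least 1 FPKM (fragments per kilobase of gene, relative to library size), the level that 10536 symbols reach. The study measured total RNA of macrophages that were grown from mouse bone marrow in the growth factor M-CSF, for 5 days at 20 ng/ml. The KO library has the genotype SPP1fl/fl-Lyz2-icre: both Spp1 alleles are floxed and a Cre recombinase is driven from Lyz2, which is active in macrophages, monocytes and neutrophils. The WT library has the genotype SPP1fl/fl, so its cells carry the same floxed alleles without the Cre, and no group without floxed alleles is part of the comparison. Each genotype has 1 library. The labels give neither the age nor the number of the mice, and do not say whether a library pools several.

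Double-stranded RNA in the cytosol is a sign of virus, and these genes encode 3 kinds of protein that detect it. Oas enzymes bind double-stranded RNA and make short 2′-5′ linked chains of adenosine, which act as a second messenger. RIG-I (Ddx58), MDA5 (Ifih1) and LGP2 (Dhx58) are related helicases, of which RIG-I and MDA5 signal through the mitochondrial adaptor MAVS to interferon genes. PKR, made from Eif2ak2, is a kinase that stops translation by phosphorylating eIF2α. Macrophages make all of them at a low level without infection, and type I interferon raises their transcription through the factor ISGF3, which binds paired GAAA words in promoters.

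RefSeq promoters (build GRCm38.p6) were found for 8 of the 10 genes, all but Oas2 and Dhx58. The 250 bases before each start were searched on both strands for GAAANNGAAA, the core of the interferon-stimulated response element. It stood in 3 of the 8, those of Oas1a, Oas1g and Oas3, and in 2.98% of all 32851 promoters of the table. Oas1a and Oas1g each had 2 overlapping matches, from 20 to 5 bases before the start in Oas1a and from 18 to 3 bases before it in Oas1g. The match in Oas3 ran from 75 to 66 bases before the start. The 100 bases before the start are shown for these 3 genes because the element lies inside them, and for Oasl1 because it had the largest difference of the 10 and no match in its 250 bases. Capitals mark the matches, and each run is 5′ to 3′ on the strand of the gene.

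Oas1a (chr5:120907526-120907625, minus strand): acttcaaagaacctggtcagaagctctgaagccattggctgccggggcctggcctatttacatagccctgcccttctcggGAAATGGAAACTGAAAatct
Oas1g (chr5:120887614-120887713, minus strand): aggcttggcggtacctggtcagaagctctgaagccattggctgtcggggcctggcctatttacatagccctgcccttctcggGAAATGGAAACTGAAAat
Oas3 (chr5:120777660-120777759, minus strand): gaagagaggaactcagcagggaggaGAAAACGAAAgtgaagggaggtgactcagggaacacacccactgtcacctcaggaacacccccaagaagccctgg
Oasl1 (chr5:114923140-114923239, plus strand): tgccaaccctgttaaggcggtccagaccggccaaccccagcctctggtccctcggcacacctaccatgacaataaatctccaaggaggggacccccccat

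The stretches of Oas1a and Oas1g are near copies: with an offset of 2 bases, 91 of 98 bases are identical (92.9%). No match says only that these letters are not in the window searched. A second motif, TTCNNNGAA, the core of the gamma-activated element of interferon-gamma target genes, stood in the 250 bases of Oas1a and Eif2ak2, 2 of 8, and in 7.02% of all promoters; it overlapped no GAAANNGAAA match in these genes.

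The KO library lacks nearly all of the targeted transcript: Spp1 stood at 11.3 FPKM in KO cells and 4006 FPKM in WT cells. Lyz2, which carries the Cre, stood at 13539 FPKM in KO cells and 29499 FPKM in WT cells. Both libraries had the markers of macrophages, with a summed level of 9 such genes of 4228 FPKM in KO cells and 4212 FPKM in WT cells. Single markers differed more than this sum, with 4 of the 9 above WT in KO and 5 below. Fcgr1 stood at 190.2 FPKM in KO cells and 99.2 FPKM in WT cells, and Mrc1 at 63.0 FPKM in KO cells and 76.3 FPKM in WT cells. Of the 8 monocyte markers, 6 reached 1 FPKM, and 5 of those 6 were above WT in KO; the list summed to 90.6 FPKM in KO cells and 57.3 FPKM in WT cells. Ms4a4c made 53.4 FPKM of this sum in KO cells and 14.7 FPKM in WT cells, and the other 7 summed to 37.2 FPKM in KO cells and 42.6 FPKM in WT cells; F13a1 was lower by 2-fold, at 6.36 FPKM in KO cells and 17.8 FPKM in WT cells. The 8 neutrophil markers summed to 3.22 and 1.96 FPKM in KO cells and WT, with Ly6g, Camp and Elane at 0 in both. S100a8 made 2.86 FPKM of this sum in KO cells and 1.52 FPKM in WT cells. S100a9 (0.220 and 0.0841 FPKM) and Mpo (0.0452 and 0 FPKM) stood higher in KO, and Retnlg (0.0946 and 0.289 FPKM) and Ngp (0 and 0.0758 FPKM) lower. The 7 markers of plasmacytoid dendritic cells, known as strong interferon producers, summed to 10.6 FPKM in KO cells and 9.42 FPKM in WT cells. Tcf4 made 8.29 and 8.08 FPKM of these sums. Ly6d stood at 1.33 FPKM in KO cells and 0.350 FPKM in WT cells, and Ccr9 at 0.0528 and 0.0303 FPKM. Siglech (0.152 and 0.155 FPKM), Cox6a2 (0.742 and 0.801 FPKM) and Pacsin1 (0 and 0.0104 FPKM) stood lower in KO, and Klk1 is listed at 0 in both. Stromal markers summed to 4.11 FPKM in KO cells and 9.43 FPKM in WT cells, 8 of 8 lower in KO. Xist, made from the inactive X of female cells, stood at 45.7 FPKM in KO cells and 58.5 FPKM in WT cells, and the Y-linked genes Ddx3y, Eif2s3y, Uty and Kdm5d at 6.50, 9.90, 2.32 and 1.86 FPKM in KO cells against 3.30, 5.31, 1.13 and 1.62 FPKM in WT cells, so both libraries held Xist and Y-linked transcripts, which the cells of 1 mouse do not normally make together. The part of cell mixture or sex in the differences below was not tested. In bulk RNA, more cells that make a transcript and more transcript per cell cannot be told apart. The smallest steps between values put the depth at about 34.8 M reads or read ends for KO and 45.5 M for WT; for a 1-kb gene such a step is 0.0288 FPKM in KO cells and 0.0220 FPKM in WT cells.

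All 10 genes stood higher in the KO library, between 1.52-fold and 3.32-fold as ratios of FPKM. On the scale of log2(FPKM + 1), KO minus WT, used for every difference below, their median was 1.01, while the median of all 10536 symbols was -0.01. A difference of at least 1 in size, that is 2-fold on this scale, was taken as higher or lower. This is a rule of size and not a test, since 1 library per genotype gives no spread between cultures. By it, 5 of the 10 genes were higher and 0 lower, beside 1.23% of all symbols higher and 0.475% lower. The differences of these 5 ran from 1.05 (Oas1a) to 1.63 (Oasl1), and 4 others lay just below it, from 0.93 (Ddx58 and Ifih1) to 0.97 (Dhx58). At 1.5-fold on the same scale, 9 of the 10 were higher, all but Eif2ak2, whose plain ratio of 1.52 gives a difference just short of the rule, beside 3.24% of all symbols. Among all symbols ordered by difference, the 10 held places from 52 (Oasl1) to 354 (Eif2ak2).

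**Figure D1:**
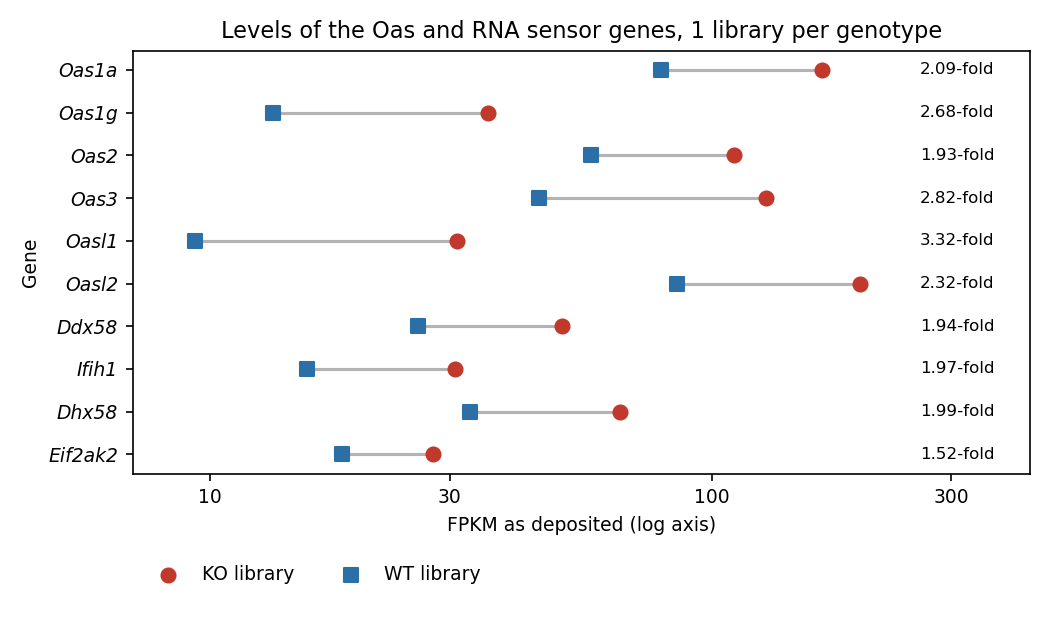
Level of each of the 10 genes in FPKM on a log axis, KO library as circles and WT library as squares, with the KO to WT ratio at the right. Every circle lies to the right of its square, and the gap is widest for Oasl1 (3.32-fold) and narrowest for Eif2ak2 (1.52-fold).

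**Figure D2:**
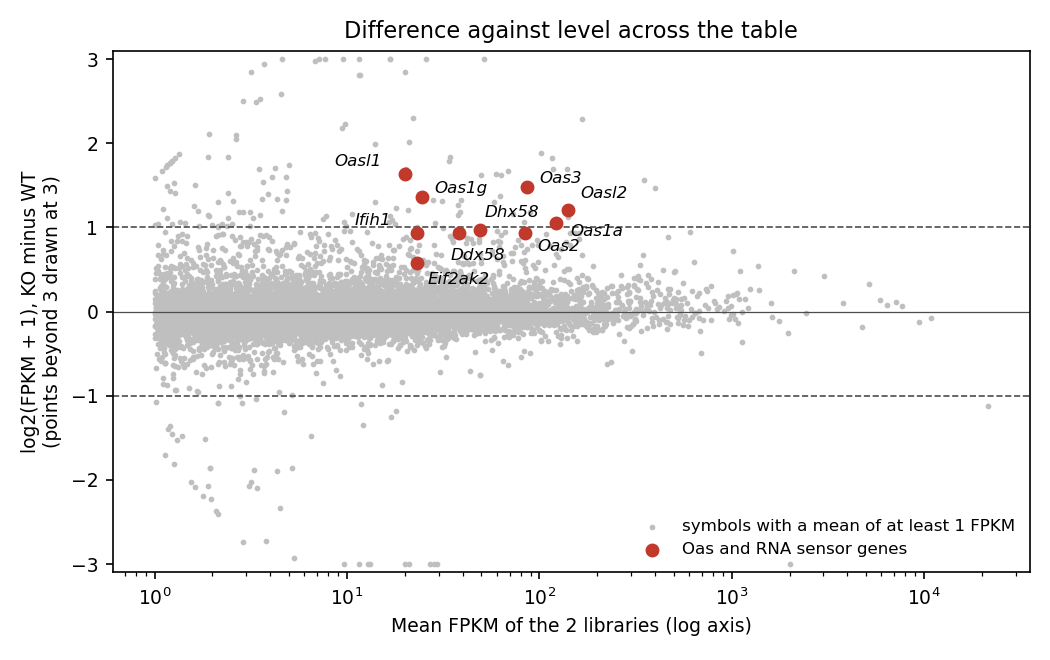
Difference KO minus WT in log2(FPKM + 1) against the mean FPKM of both libraries on a log axis, for the 10536 symbols with a mean of at least 1 FPKM; dashed lines mark 2-fold. The 10 genes lie between 0.58 and 1.63, above most symbols of their level.

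Of the Oas1 enzymes, Oas1a and Oas1g stood higher in KO by a factor of 2 or more. Oas1a (ENSMUSG00000052776.10), an active synthetase of mouse, stood at 165.4 FPKM in KO cells and 79.3 FPKM in WT cells, 2.09-fold and a difference of 1.05. Oas1g (ENSMUSG00000066861.14), its neighbour and near copy, stood at 35.8 FPKM in KO cells and 13.3 FPKM in WT cells, 2.68-fold and a difference of 1.36. The values of these 2 genes are uncertain one by one: of all words of 100 bases in the annotated transcript of Oas1a, 40.9% also stand in transcripts of Oas1g, and 31.3% of those of Oas1g stand in Oas1a. No other of the 10 genes shares a word of this length with any other annotated gene. Summed, Oas1a and Oas1g stood at 201.2 FPKM in KO cells and 92.6 FPKM in WT cells, 2.17-fold and a difference of 1.11.

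The other mouse Oas1 genes were low. Oas1b stood at 11.5 FPKM in KO cells and 5.89 FPKM in WT cells, a difference of 0.86, and Oas1c at 4.96 FPKM in KO cells and 3.68 FPKM in WT cells, a difference of 0.35; both are annotated in the same cluster, Oas1b as a polymorphic pseudogene. Oas1h stood at 0.592 FPKM in KO cells and 0.292 FPKM in WT cells. Oas1d, known from oocytes, stood at 0.0166 and 0.0127 FPKM in KO cells and WT, a ratio equal to that of 1 read against 1 read (1.308). Oas1e and Oas1f are listed at 0 in both libraries. None of these 6 genes reached a difference of 1 (Oas1h, a ratio of 2.03 at a low level, had 0.30), and Oas1b, Oas1c and Oas1h stood above WT in KO.

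Oas2 and Oas3 are the larger synthetases, with 2 and 3 synthetase units in tandem. Oas2 (ENSMUSG00000032690.16) stood at 110.7 FPKM in KO cells and 57.3 FPKM in WT cells, 1.93-fold and a difference of 0.94. Oas3 (ENSMUSG00000032661.9), the longest of the synthetases, stood at 127.9 FPKM in KO cells and 45.3 FPKM in WT cells, 2.82-fold and a difference of 1.48. The order of the pair therefore turned: the level of Oas3 was 1.16 times that of Oas2 in KO and 0.791 times in WT.

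The Oas-like genes carry ubiquitin-like domains at their ends. Oasl1 (ENSMUSG00000041827.15), which lacks synthetase activity and in mouse restrains translation of the Irf7 message, had the largest difference of the 10, at 31.0 FPKM in KO cells and 9.33 FPKM in WT cells, 3.32-fold and 1.63. It was also the lowest of the 10 in WT. An antisense gene, Gm13822, at 1.13 FPKM in KO cells and 0.182 FPKM in WT cells, overlaps 38 of its exon bases. Even so its values rest on about 2807 reads or read ends in KO and 1106 in WT at the estimated depth, the fewest of the 10 genes. Oasl2 (ENSMUSG00000029561.17), which keeps synthetase activity in mouse, was the most abundant of the 10 in both libraries, at 197.4 FPKM in KO cells and 85.0 FPKM in WT cells, 2.32-fold and 1.21. The order of levels among the 6 Oas and Oasl genes was the same in both libraries (Oasl2, Oas1a, the pair Oas3 and Oas2, Oas1g, Oasl1) except for Oas2 and Oas3; which neighbours in this order differ beyond the spread between cultures cannot be said. Of the summed level of these 6 genes, 668.1 FPKM in KO cells and 289.5 FPKM in WT cells, Oasl2 made 29.5% in KO and 29.4% in WT, Oas1a 24.8% and 27.4%, Oas2 16.6% and 19.8%, and Oas3 19.1% and 15.6%.

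All Oas and Oasl genes named here lie on chromosome 5 (GRCm38). Oas2, Oas3 and the 8 Oas1 genes form a cluster of 191.3 kb (chr5:120730333-120921652), and Oasl2 and Oasl1 (chr5:114896936-114912234 and chr5:114923240-114937915) lie 11.0 kb from each other and 5.79 Mb before it. Spp1 (chr5:104435118-104441050) is on the same chromosome, 10.5 Mb from Oasl2 and 16.3 Mb from the cluster. Genes around the cluster stood close to level. Of the 21 other genes within 1 Mb with a mean of at least 1 FPKM, 0 were higher and 0 lower by 2-fold. Over all symbols these shares were 1.23% and 0.475%. Of the 21 genes, 11 stood above WT in KO, and the median was 0.03. Their differences ran from -0.36 (Acad12) to 0.49 (Trafd1, which encodes a regulator of innate signalling, 125.8 FPKM in KO cells and 89.0 FPKM in WT cells).

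**Figure D3:**
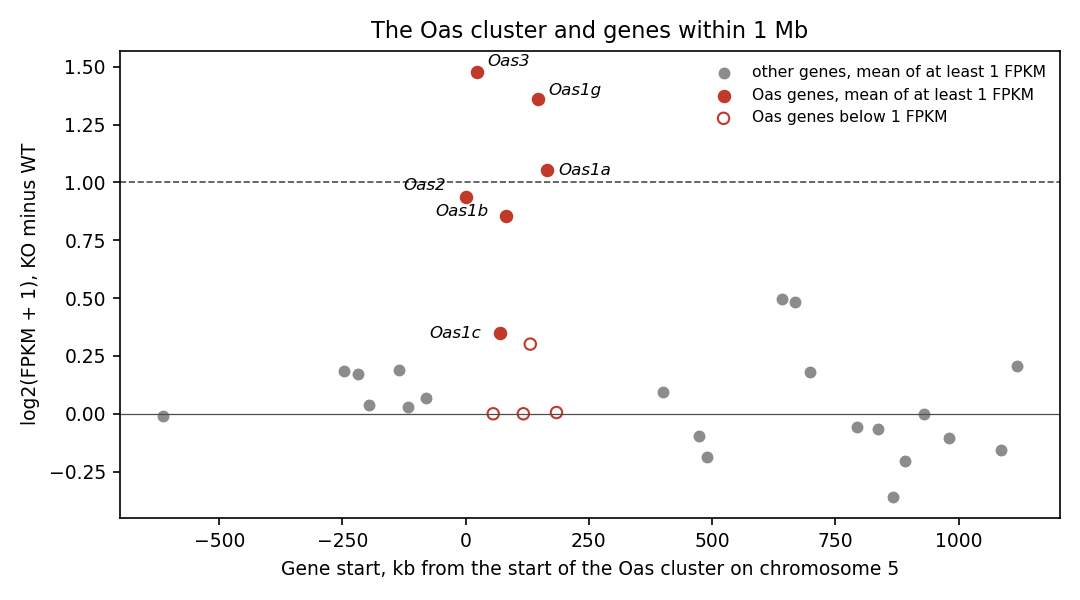
Difference KO minus WT in log2(FPKM + 1) against the position of each gene start, in kb from the start of the Oas cluster. The Oas genes Oas3, Oas1g and Oas1a lie above the dashed 2-fold line (1.48, 1.36 and 1.05), while the 21 neighbours lie between -0.36 and 0.49.

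The 3 RIG-I-like receptor genes differed by nearly the same ratio although they lie on different chromosomes. Ddx58 (ENSMUSG00000040296.15, chromosome 4), the sensor of RNA with 5′ phosphates, stood at 50.3 FPKM in KO cells and 25.9 FPKM in WT cells, 1.94-fold. Ifih1 (ENSMUSG00000026896.14, chromosome 2), whose product MDA5 binds long double-stranded RNA, stood at 30.7 FPKM in KO cells and 15.6 FPKM in WT cells, 1.97-fold. Dhx58 (ENSMUSG00000017830.15, chromosome 11), whose product LGP2 has no signalling domain and modulates the others, stood at 65.6 FPKM in KO cells and 33.0 FPKM in WT cells, 1.99-fold. All 3 are just short of 2-fold by the rule (0.93, 0.93 and 0.97). Their proportions were alike in both libraries: Dhx58 stood at 1.31 times the level of Ddx58 in KO and 1.27 times in WT, and Ifih1 at 0.610 and 0.601 times. An antisense gene, Dhx58os, overlaps 141 exon bases of Dhx58. Whether the counting used strand is not given, so reads from such overlaps cannot be assigned to 1 gene.

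Genes that work with or after these receptors mostly stood level. Of all symbols, 1.23% were higher by 2-fold and 0.475% lower. At these shares most lists of the sizes below would hold 0 such genes, so a count of 0 says little. Of 16 genes listed as cofactors and activators of RIG-I and MDA5 past the filter, 2 were higher by 2-fold and 0 lower, with a median of 0.03. They were Ddx60, a helicase described as a RIG-I cofactor, at 15.01 FPKM in KO cells and 6.20 FPKM in WT cells (1.15), and Ppp1ca. Ppp1ca, a phosphatase subunit gene with several rows, stood at 48.1 FPKM in KO cells and 3.58 FPKM in WT cells (3.42). Its value is uncertain. The ubiquitin ligase gene Rnf135 stood at 15.1 FPKM in KO cells and 11.8 FPKM in WT cells, and Zc3hav1, which encodes the antiviral protein ZAP, at 63.0 FPKM in KO cells and 55.5 FPKM in WT cells. Pqbp1, which encodes a polyglutamine-binding protein and was placed in this list, stood lower, at 20.4 FPKM in KO cells and 24.2 FPKM in WT cells (-0.24).

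The adaptor Mavs stood at 19.4 FPKM in KO cells and 22.2 FPKM in WT cells (-0.19), the kinase gene Tbk1 at 34.0 and 32.9 FPKM in KO cells and WT, and the factor Irf3, which the pathway activates, at 21.9 FPKM in KO cells and 21.3 FPKM in WT cells. The median of the 20 genes of this adaptor list was 0.05. Of them, 2 were higher by 2-fold and 0 lower, beside 1.23% and 0.475% of all symbols. The 2 were Irf7, the interferon-induced relative of Irf3, at 214.02 FPKM in KO cells and 65.2 FPKM in WT cells (3.28-fold), and Ifit3, an interferon-induced binder of the MAVS complex, at 180.2 FPKM in KO cells and 55.1 FPKM in WT cells (3.27-fold). Next in size were Azi2, which encodes a binding partner of TBK1 (0.38), and the death domain adaptor gene Tradd (0.25). Mavs, Tbk1 and Irf3 were chosen after their values were seen, for their role. Of 19 negative regulators of the receptors past the filter, 0 were higher or lower by 2-fold, the median was -0.02, and the largest difference was that of Nlrc5 (16.6 FPKM in KO cells, 10.7 FPKM in WT cells, 0.59). Nlrx1 (-0.17), Atg12 (0.15) and Atg5 (-0.14) followed in size.

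PKR had the smallest difference of the 10. Eif2ak2 (ENSMUSG00000024079.4, chromosome 17) stood at 27.8 FPKM in KO cells and 18.3 FPKM in WT cells, 1.52-fold and 0.58. In WT it was seventh of the 10 by level and in KO last. On the opposite strand, Gm26637, at 4.05 FPKM in KO cells and 2.87 FPKM in WT cells, overlaps 174 of its exon bases, and the ribosomal RNA gene n-R5s29 overlaps 47. The other eIF2α kinase genes, which respond to heme loss, protein folding stress and amino acid loss, did not stand higher: Eif2ak1 was at 36.6 FPKM in KO cells and 40.1 FPKM in WT cells, Eif2ak3 at 11.3 FPKM in KO cells and 13.3 FPKM in WT cells, and Eif2ak4 at 7.89 FPKM in KO cells and 8.24 FPKM in WT cells (not picked by the rule for named genes). Eif2ak2 stood at 0.759 times the level of Eif2ak1 in KO and 0.457 times in WT. The PKR activator gene Prkra stood at 10.9 FPKM in KO cells and 12.1 FPKM in WT cells, and the PKR-binding Tarbp2 at 12.8 FPKM in KO cells and 13.4 FPKM in WT cells. Over these 7 kinase and regulator genes the median was -0.06, with 0 higher or lower by 2-fold.

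No gene past the filter reached 2-fold in a list of eIF2α, its exchange factor eIF2B and genes downstream of its phosphorylation. Below the filter, Chac1 stood at 0.147 FPKM in KO cells and 0.0280 FPKM in WT cells, a ratio of 5.23 at a low level. Atf4, the translation-controlled factor of the stress response, stood at 76.3 FPKM in KO cells and 60.0 FPKM in WT cells, Atf3 at 202.1 FPKM in KO cells and 153.1 FPKM in WT cells, and Ddit3, which encodes CHOP, at 22.6 FPKM in KO cells and 15.4 FPKM in WT cells (0.53). Asns, a target of Atf4 named for its role with its values known, stood level at 2.92 FPKM in KO cells and 2.78 FPKM in WT cells. Eif2b3, a subunit gene of eIF2B, stood at 2.10 FPKM in KO cells and 2.52 FPKM in WT cells (-0.18). Of the 14 genes past the filter 0 passed 2-fold and the median was 0.07.

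Among 16 genes that edit, bind or clear double-stranded RNA, the median was -0.03. Of them, 1 was higher by 2-fold and 0 lower, beside 1.23% and 0.475% of all symbols. It was Zbp1, the sensor of left-handed nucleic acid that starts necroptosis, at 105.6 FPKM in KO cells and 32.4 FPKM in WT cells (3.26-fold, 1.67). Adar, which edits double-stranded RNA and so keeps the cell's own RNA from MDA5, stood at 49.95 FPKM in KO cells and 33.1 FPKM in WT cells (0.58), Samhd1, a nucleotide hydrolase, at 225.3 FPKM in KO cells and 154.3 FPKM in WT cells, and the mitochondrial ribonuclease gene Pnpt1 at 15.9 FPKM in KO cells and 11.9 FPKM in WT cells. Dicer1 stood at 8.42 FPKM in KO cells and 9.21 FPKM in WT cells, named for its role with its values known.

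The lists of endosomal RNA sensing and of DNA sensing, which do not hold Zbp1, had no gene past 2-fold. Of 9 genes of endosomal RNA sensing, Toll-like receptors with their adaptors, kinases and trafficking factor, 0 passed 2-fold and their median was 0.09; the double-stranded RNA receptor gene Tlr3 had the largest difference (6.002 FPKM in KO cells, 4.03 FPKM in WT cells, 0.48), followed by Tlr7, for single-stranded RNA, at 120.9 FPKM in KO cells and 103.2 FPKM in WT cells, the adaptor gene Myd88 (0.20) and Tlr13, for bacterial ribosomal RNA (0.15). Of 7 DNA sensing genes past the filter, 0 passed 2-fold and the median was 0.19. By the 1.5-fold rule 1 of the 7 was higher, beside 3.24% of all symbols. The 1 was Ifi204, an interferon-induced gene of the AIM2-like family with several rows, whose value is uncertain, at 125.6 FPKM in KO cells and 69.5 FPKM in WT cells (0.84, above that of Eif2ak2). Cgas, the cytosolic DNA sensor, stood at 7.02 FPKM in KO cells and 5.17 FPKM in WT cells, and its adaptor Sting1, named for its role with its values known, at 29.6 FPKM in KO cells and 29.3 FPKM in WT cells. The DNA sensor gene Aim2 had a difference of 0.19, and Enpp1, whose product degrades the messenger made by cGAS, one of -0.19. Of 28 listed Ddx and Dhx helicase genes of other roles past the filter, 0 were higher or lower by 2-fold. Their differences ran from -0.38 (Dhx57) to 0.19 (Ddx47). Over all symbols, 1.23% were higher and 0.475% lower. The list leaves out helicase genes that differed more, among them the RIG-I-like receptors (0.93 to 0.97) and Ddx60 (1.15).

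**Figure D4:**
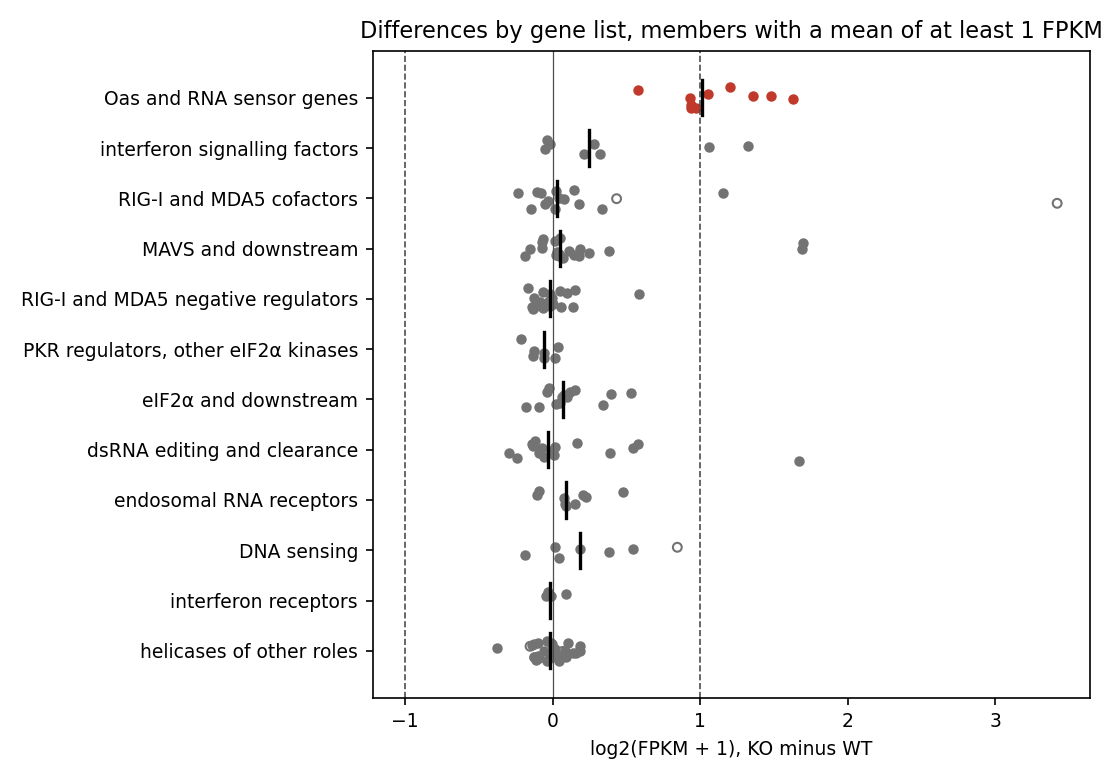
Difference KO minus WT in log2(FPKM + 1) for each gene with a mean of at least 1 FPKM, 1 row per gene list; bars are medians, dashed lines mark 2-fold and open circles are symbols with several rows. The 10 genes have a median of 1.01, while the medians of the other lists drawn lie between -0.06 and 0.25; Oas1b and Oas1c, not drawn, have a median of 0.60.

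Genes of interferon signalling, some of which induce these genes, differed in part. Stat2, a subunit of ISGF3, stood at 112.6 FPKM in KO cells and 53.4 FPKM in WT cells (2.11-fold, 1.06), and Irf9, another subunit and named for its role with its values known, at 47.9 FPKM in KO cells and 41.2 FPKM in WT cells. Usp18, an interferon-induced brake on the receptor, stood at 56.7 FPKM in KO cells and 22.1 FPKM in WT cells (2.57-fold, 1.32). Irf1, an interferon-induced transcription factor, stood at 41.7 FPKM in KO cells and 33.2 FPKM in WT cells (0.32), and its relative Irf8 at 108.6 FPKM in KO cells and 89.1 FPKM in WT cells (0.28). The median of the 8 genes of this list past the filter, the brake Usp18 among them, was 0.25. Of the 8, 2 (Stat2 and Usp18) were higher by 2-fold and 0 lower, beside 1.23% and 0.475% of all symbols. The receptor genes stood level, Ifnar1 at 25.1 FPKM in KO cells and 25.7 FPKM in WT cells and Ifnar2 at 48.3 FPKM in KO cells and 45.4 FPKM in WT cells. Of 21 interferon ligand genes, 19 are listed at 0 in both libraries and none reached 1 FPKM. Ifnb1 stood at 0.374 FPKM in KO cells, about 9.74 reads or read ends at the estimated depth, and is listed at 0 in WT; Ifnk stood at 0.105 FPKM in KO cells and 0.161 FPKM in WT cells.

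With 2 libraries, likeness to the 10 genes can only mean a like difference. Among 7305 other symbols with 1 row and a mean of at least 5 FPKM, those nearest to the median of the 10 were Lsm7 (13.5 FPKM in KO cells and 6.21 FPKM in WT cells), Nt5c3 (31.1 FPKM in KO cells and 15.002 FPKM in WT cells), the microRNA gene Mir7652 (24.4 FPKM in KO cells and 11.3 FPKM in WT cells), Rtp4 (171.4 FPKM in KO cells and 82.0 FPKM in WT cells) and Helz2 (39.3 FPKM in KO cells and 18.4 FPKM in WT cells), all within 0.05 of 1.01.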

How the data were processed

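The comparison used 1 KO and 1 WT library of macrophage RNA. The values used are FPKM per gene symbol from 1 table that the authors deposited. RSEM, DESeq2 and the build mm10 are listed, with no role, per the submitters' processing notes; nothing states the aligner, annotation or strand setting. 2 further value columns match no sample and were not used. Of symbols with several rows (1766), the row with the highest mean was kept. KO minus WT differences were taken in log2(FPKM + 1), which understates changes of low genes; symbols with a mean of at least 1 FPKM were kept. No test is possible with 1 library per genotype. The counting step was tested on simulated data.

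Depth was read from the lowest values. The value of 1 read was 1.308 times higher in KO than in WT, and GENCODE M21 exon lengths (GRCm38, the mm10 build) of single-transcript genes gave the absolute step. More symbols stood at 2 steps (108) than at 1 (77), so a step may be 1 end of a read pair. Counting error is small beside the differences of the 10 genes; the spread between cultures is unknown.

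The 10 genes and the lists were chosen with earlier results of these data known. Genes named were the 10, other Oas1 genes, up to 4 genes per list with the largest differences among those with 1 row, and a few checks; some genes of the pathway are not reported here. Promoters are from RefSeq; a comparison of proteins was planned and not made. Alternatives were other pseudocounts (0.1 and 5), filters, scalings, summed rows and size rules of 1.5-fold and 3-fold. Python 3.11.15, numpy 2.4.6 and pandas 2.3.3 were used.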

Additional observations from a re-analysis of the deposited data

How the results depend on the processing

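The 10 Oas and RNA sensor genes were higher in KO under each of the 9 alternatives that give their differences, and their median ran from 0.96 (a pseudocount of 5 FPKM, or equal sums without the 100 most abundant symbols) to 1.03 (a pseudocount of 0.1 FPKM). The number past 2-fold was 5 under each pseudocount, filter and scaling. The 1.5-fold rule gave 9, since 4 genes lie just below 2-fold, and the 3-fold rule gave 1. The filters and summed rows could not change the values of the 10 genes. Each has 1 row and a mean above 5 FPKM. With Oas1a and Oas1g as 1 value, 4 of 9 passed and the median was 0.97. The median of all symbols moved by less than 0.06 under each scaling.

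Counts over all symbols depended more on the choices. Against 130 higher and 50 lower, a pseudocount of 0.1 FPKM gave 187 higher and 79 lower, and 5 FPKM gave 58 higher and 18 lower. No filter gave 148 higher and 82 lower, and a mean of at least 5 FPKM gave 64 higher and 18 lower. The 1.5-fold rule gave 341 higher and 121 lower, and the 3-fold rule 57 higher and 31 lower. Chosen after seeing the data, symbols with 1 row gave 87 higher and 20 lower, and protein-coding symbols with 1 row 53 higher and 5 lower of 9399. No paired analysis was possible because each genotype has 1 library, which also leaves no replicate to leave out.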

Other observations

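The GAAANNGAAA core was counted across the table as well. Of the 8348 symbols with a RefSeq promoter and a mean of at least 1 FPKM, 76 were higher in KO by 2-fold, 0.910%, and the median difference was -0.01. Among the 286 of them that held the core in the 250 bases before the start and are not among the 10 genes, 19 were higher by 2-fold, 6.64%, and the median was 0.04. Within the lists described, the core stood in the promoters of Ddx60, Ifit3 and Stat2, which were higher in KO by 2-fold. It also stood in those of Oas1c, Tomm70a, Arl16, Ppp1r15a, Socs1, Eif2s1 (21.8 FPKM in KO, 20.6 FPKM in WT), Irf2 (25.0 FPKM in KO, 26.0 FPKM in WT) and Myd88 (62.5 FPKM in KO, 54.2 FPKM in WT), which did not reach 2-fold. It stood in 11 of the 20 interferon ligand promoters, whose genes were near or at 0 in both libraries, and in 0 of 26 promoters of the helicases of other roles.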
